A study of Mus musculus with 4 samples.

Results

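Round spermatids rich in mitochondrial RNA were the single-cell barcodes of mouse testis that carried round spermatid marker transcripts together with a raised share of transcripts from the mitochondrial genome. A barcode was a member when it had at least 500 detected genes, when 1% to 10% of its unique molecular identifiers (UMI, each standing for 1 captured transcript) came from genes with names starting mt-, and when it held at least 4 UMI over Acrv1, Spaca1, Tssk1, Tssk2, Lyzl1, Lyzl6, Catsper3 and Catsper4. That 8-marker sum also had to exceed the UMI of the spermatocyte genes Pou5f2 and Piwil1, and Tnp1, Tnp2, Prm1 and Prm2 together had to stay under 3% of UMI, which keeps out spermatids that have begun to store protamine transcripts. The members were thus chosen by their measured mitochondrial share and marker UMI, and neither is read as a result. Of 32273 barcodes in the matrix, 2799 met the rule, which is 8.67% (8.37% to 8.99%, exact Clopper-Pearson 95% interval, counting error only). The barcodes they are set against here, mt-poor round spermatids, passed the same rule with a mitochondrial share under 1% and numbered 4328.

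The study profiled dissociated testis cells of C57BL/6 mice at postnatal day 63 by droplet single-cell RNA sequencing of 3' ends, and asked how loss of Phf7, a histone ubiquitin ligase of spermatids, alters the replacement of histones by protamines. Its 4 samples were 2 of genotype Phf7 tKO, given as Stra8-Cre:Phf7 f/f, in which the Stra8 promoter drives Cre in germ cells entering meiosis, and 2 of genotype Phf7 f/f, with the floxed gene and no Cre named. All animals therefore carried the floxed allele. The matrix joins 4 libraries, told apart by a barcode suffix of 1 to 4, but no source used here ties a suffix to a sample, so libraries are given by number, no genotype was assigned to any, and no genotypes were compared. The libraries held 7539 to 8562 barcodes and 44447735 to 50353091 UMI each. In the whole matrix, 497 barcode sequences occurred in more than 1 library. Of the members, 64 had a sequence that was also found in another library, and 2 sequences belonged to members in more than 1 library. Because the libraries are tied to no sample and the members were chosen on values of the same barcodes, no statistical test was made, and all ratios below are descriptions, given by library or with intervals for counting error only.

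Round spermatids are the haploid cells that follow the meiotic divisions. They assemble the acrosome, a secretory vesicle built from endoplasmic reticulum and Golgi products that carries the enzymes and fusion proteins used at fertilisation, and they begin to transcribe and store the messages of the sperm tail and of sperm chromatin. Mitochondria keep a small circular genome that encodes subunits of the respiratory chain and of ATP synthase, while all other mitochondrial proteins come from nuclear genes. In spermatids the mitochondria later line up around the tail midpiece as the mitochondrial sheath, and most of the cytoplasm is finally shed.

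The label was checked against markers of the other testis cells, because the marker minimum of 4 UMI is low. Among members, 15.6% of barcodes had at least 3 UMI over 12 Sertoli markers and 20.0% had as many over 8 early spermatocyte markers, against 4.14% and 16.4% of mt-poor barcodes, at median depths of 3042 and 2584.5 UMI. In summed UMI, the Sertoli list stood at 7.76 per 10000 nuclear UMI in members (4.56 to 10.6 over the libraries) and 0.579 in mt-poor spermatids (0.269 to 0.891). The macrophage list stood at 6.36 (3.59 to 8.67) in members and 0.277 (0.0635 to 0.451) in mt-poor spermatids. The Leydig list stood at 5.60 (3.61 to 7.73) in members and 0.155 (0.0569 to 0.277) in mt-poor spermatids. Globin transcripts of red cells reached 3 UMI in 1 member and in 0 mt-poor barcodes. The data therefore go against the label for a portion of the barcodes, and the main comparisons below are also given without them.

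Barcodes were set aside where UMI of 58 markers of Sertoli, Leydig, macrophage, endothelial, interstitial mesenchymal, spermatogonial and early spermatocyte cells came to at least 0.5 times the 8-marker sum. This filter was chosen after the data were seen. It removed 870 of 2799 members, or 31.1% (29.4% to 32.8%), and 291 of 4328 mt-poor barcodes, or 6.72% (6.00% to 7.51%). By library the share removed from the members was 26.2, 34.2, 33.2 and 29.3%. Of the members removed, 359 were led by Sertoli markers, 241 by early spermatocyte, 102 by spermatogonial, 65 by macrophage, 55 by Leydig, 40 by mesenchymal and 8 by endothelial markers. In the 1929 marker-filtered members the Sertoli list stood at 0.624, the macrophage list at 0.0899 and the Leydig list at 0.0942 UMI per 10000, with Sox9, Lhcgr, Cdh5, Pdgfra and Tcf21 at 0 UMI, against 0.240, 0.0603 and 0.0532 in the 4037 marker-filtered mt-poor barcodes. The filter removes barcodes on these same genes, so their low levels after it follow from the filter and are no check of it. The early spermatocyte list kept 3.33 UMI per 10000 in marker-filtered members and 1.61 in marker-filtered mt-poor spermatids. The filter did not use the late spermatocyte list of 8 genes, which stood at 49.2 UMI per 10000 in marker-filtered members (47.5 to 50.4 over the libraries) and 24.1 in marker-filtered mt-poor spermatids (22.6 to 26.5), against 36.4 in barcodes gated as spermatocytes. As a sum it was thus higher in members than in spermatocytes (33.9 to 38.9 over the libraries), and above the members' own round spermatid list, at 46.6, a list that was at 0.803 in spermatocytes. The genes of the late spermatocyte list are Piwil1 and Pou5f2, which the rule limits, Ccna1, Nme8, Insl6, Aurka, Tbpl1 and Clgn. Clgn alone had 2507 CPM in marker-filtered members and 658 CPM in mt-poor spermatids, and was also higher in members than in spermatocytes. The list was not summed without Clgn. Of its 6 genes outside the rule, 1 was at least 2-fold higher in marker-filtered members than in spermatocytes, and 5 were called neither way. At least 3 UMI over this list were held by 93.1% of marker-filtered members and 78.0% of mt-poor barcodes. Its part in the results below was not tested.

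The mitochondrial share, which chose the members, fell into a sharp peak near 0 and a broad shoulder. Members had a median share of 3.60%, with quartiles of 2.33% and 4.99%, and the library medians were 3.49, 3.74, 3.22 and 3.74%. Mt-poor spermatids had a median of 0.0505%. From 2% to 5% lay 56.2% of the members, and under 0.1% lay 64.3% of the mt-poor barcodes. In counts, the median member held 112 mitochondrial UMI among 3042 in all, and the median mt-poor barcode held 1 among 2584.5. The members detected a median of 1791 genes and the mt-poor barcodes 1443. The upper tail of depth ran the other way, with a 95th percentile of 9515.5 UMI in members and 35043.8 in mt-poor spermatids, so sums over mt-poor barcodes weigh its deep barcodes most. A mean that counts each barcode equally is therefore given beside the main values where it differs.

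**Figure D1:**
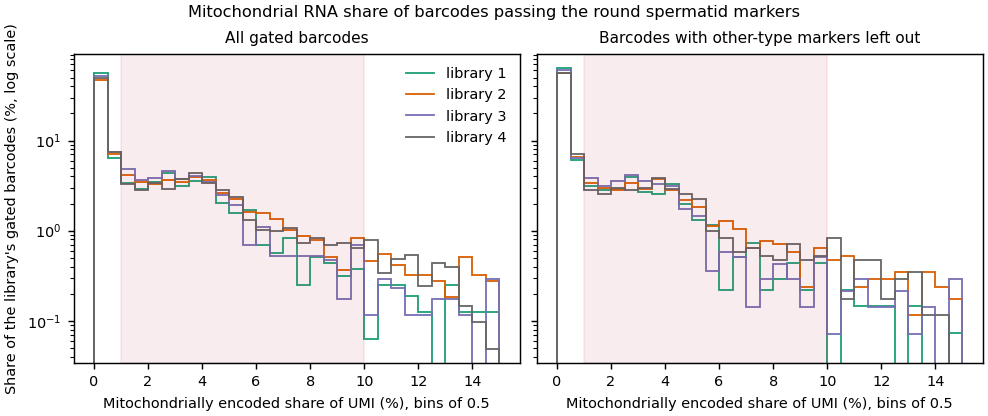
Share of each library's barcodes that passed the round spermatid markers (y axis, %, log scale) by mitochondrial share of UMI (x axis, %), for all such barcodes (left) and with barcodes carrying markers of other cell types left out (right); the shaded range is the members' 1% to 10%. In each of the 4 libraries the highest peak is at the low end, and a shoulder runs through 2% to 5%, where 56.2% of the members lie.

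Members made up 39.3% (38.1% to 40.4%) of the 7127 members and mt-poor barcodes together. By library the share was 35.2% (32.8% to 37.6%) in library 1, 42.4% (40.2% to 44.6%) in library 2, 39.0% (36.7% to 41.4%) in library 3 and 39.5% (37.3% to 41.7%) in library 4. With the marker filter it was 32.3% in the pool and 29.2, 34.7, 31.8 and 32.9% in libraries 1 to 4. The order of the libraries, with 1 lowest and 2 highest, was the same with and without the filter. Only the intervals of libraries 1 and 2 lay apart, with and without the filter, and those of every other pair overlapped. At the limits of the rule, the 60 members from 1% to 1.1% had a median of 2990.5 UMI and the 84 barcodes from 0.9% to 1% had 2549. At the upper limit, the 80 members from 9% to 10% had a median of 1734 UMI and the 57 barcodes from 10% to 11% had 1619. The minimum of 4 marker UMI was met exactly by 541 members, of which 71.5% were set aside by the marker filter, and 826 barcodes missed it with 3 marker UMI.

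The make-up of the mitochondrial RNA itself was close in members and mt-poor spermatids, although the amounts differed by the rule. Of 13 mitochondrially encoded genes, mt-Atp6, a subunit of ATP synthase, took 22.7% of mitochondrial UMI in members (21.7% to 23.5% over the libraries) and 22.4% in mt-poor spermatids (22.0% to 22.9%). The cytochrome c oxidase subunit mt-Co3 took 22.3% and 22.3%, mt-Co1 took 21.8% and 22.3%, and mt-Co2 took 14.6% and 15.2%, each given for members and then for mt-poor spermatids, with overlapping library ranges. The complex I subunits mt-Nd1 and mt-Nd5 had library ranges that lay apart. For mt-Nd1 the share was 6.84% in members (6.75% to 6.90%) and 5.76% in mt-poor spermatids (5.59% to 6.12%), but with the marker filter it stood at 5.63% and 5.61%. The share of mt-Nd5 was 0.402% in members (0.373% to 0.419%) and 0.483% in mt-poor spermatids (0.439% to 0.553%), and with the filter 0.408% and 0.498%, where the ranges overlapped. With the filter mt-Co3 lay apart instead, at 22.9% in members (22.7% to 23.0%) and 22.3% in mt-poor spermatids (22.1% to 22.7%). Members set aside by the filter had 8.79% mt-Nd1.

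Spermatocytes and somatic cells had other proportions. Barcodes gated as pachytene-to-diplotene spermatocytes had less mt-Co1, at 16.3%, and more mt-Co3, at 25.1%, than the members. Sertoli barcodes had 10.7% mt-Co2 and 10.9% mt-Nd1, and Leydig barcodes had 9.81% and 10.3%, against 15.9% and 5.63% in marker-filtered members. The members' library ranges for mt-Co2 and mt-Nd1 lay apart from those of both somatic cell types. The least abundant gene, mt-Nd6, had 7 UMI over all members and 0 over mt-poor spermatids, and mt-Atp8 had 29.

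**Figure D2:**
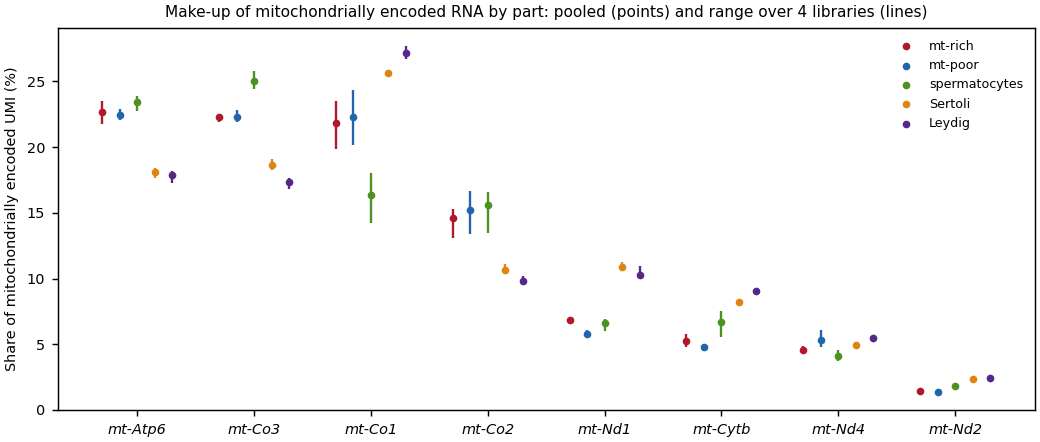
Share of mitochondrially encoded UMI (y axis, %) taken by the 8 most abundant mitochondrial genes in mt-rich members, mt-poor round spermatids, spermatocytes, Sertoli and Leydig barcodes; points are pooled values and lines span the 4 libraries. Members and mt-poor spermatids lie close together, while Sertoli and Leydig barcodes have less mt-Atp6, mt-Co3 and mt-Co2 and more mt-Nd1 and mt-Cytb.

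To ask what else differed with the mitochondrial share, nuclear transcripts were compared as CPM, the UMI of a gene per 1000000 nuclear UMI, so that mitochondrial RNA does not dilute the rest, leaving out the genes of the rule. Calls needed a pooled ratio of 2-fold, which is a log2 ratio of 1, in the same direction in all 4 libraries. Of 13532 genes with at least 50 UMI, 5297 (39.1%) were higher and 1027 (7.59%) lower in members than in mt-poor spermatids, and the median log2 ratio of all genes was 0.63. With the marker filter, 3149 of 11953 (26.3%) stood higher and 922 (7.71%) stood lower, and the median log2 ratio was 0.35. Calls also depended on level: with the filter, the 2391 most abundant genes had a median of -0.08 with 9.70% higher, while 2390 genes of 8.43 to 22.6 CPM, summed over both parts, had a median of 0.73 with 39.5% higher. So many genes were called higher that a single call says little, and lists are read against these shares and medians. Of 376 genes compared from 17 lists, 124 were higher and 26 lower in all members, and of 348 compared with the filter 56 were higher and 19 lower. Measured from the median gene instead, 81 of the list genes were higher and 87 lower in all members, and 3463 and 2699 of all genes, so the balance of directions depends on the scaling.

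**Figure D3:**
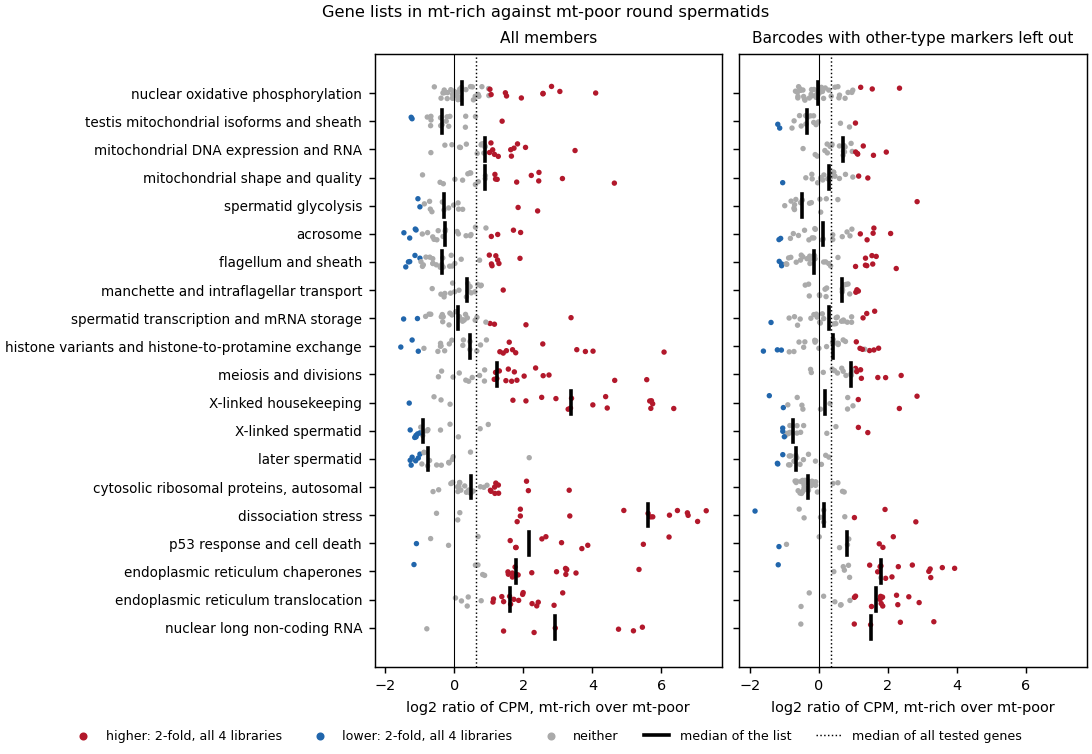
Log2 ratio of CPM in mt-rich members over mt-poor round spermatids (x axis) for each gene of 20 lists (rows), for all members (left) and with barcodes carrying markers of other cell types left out (right); red and blue points were called, black bars are list medians and the dotted line is the median of all genes compared. The stress and X-linked housekeeping lists have medians of 5.61 and 3.36 on the left and 0.14 and 0.18 on the right, while the endoplasmic reticulum lists keep medians of 1.78 and 1.61 (left) and 1.79 and 1.64 (right). Both endoplasmic reticulum lists were added after the values were seen.

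Genes that fold proteins in the endoplasmic reticulum stood high in the members with and without the filter. The chaperone list was added after the values were seen, so its place among the lists is no result. It had 15 of 20 genes higher and 1 lower in all members (median log2 ratio 1.78), where 39.1% of all genes were higher. With the filter 13 were higher and 1 lower (median 1.79), where 26.3% of all genes were higher. Measured from the median gene of all members, 13 of the 20 were still 2-fold higher, but Clgn was not, at 0.93. Hspa5 encodes BiP, the HSP70 chaperone of the endoplasmic reticulum (chromosome 2, 34771970 to 34777547, GRCm38). In marker-filtered libraries 1 to 4 it had 1724, 1765, 1677 and 1853 CPM in members, against 106, 112, 131 and 113 CPM in mt-poor spermatids. The members' lowest library was far above the highest mt-poor library. Its log2 ratio was 3.93 (3.88 to 3.98, 95% counting interval), 3.61 as a mean over barcodes and 3.52 with all members.

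Hsp90b1, which encodes the endoplasmic reticulum HSP90 (chromosome 10, 86690209 to 86705509), had 1232, 1212, 1278 and 1255 CPM in marker-filtered members, against 94.4, 99.7, 124 and 101 CPM in mt-poor spermatids. Pdia6, a protein disulphide isomerase (chromosome 12, 17266545 to 17284770), had 611, 629, 609.8 and 717 CPM in members, against 58.1, 65.6, 84.3 and 69.5 CPM in mt-poor spermatids. Their log2 ratios were 3.57 (3.52 to 3.63) and 3.22 (3.15 to 3.29), and for both genes the 4 values of each part lay apart. The lectin chaperones, which retain unfolded glycoproteins, were also higher. Calr, or calreticulin, averaged 1000 CPM in members and 293 CPM in mt-poor spermatids, Canx, or calnexin, 171 and 34.7 CPM, and Clgn, or calmegin, the testis form of calnexin, 2507 and 658 CPM. P4hb, the classical disulphide isomerase, had a ratio of 5.35 in all members but rested on 47 and 25 UMI with the filter, at 3.24 (2.51 to 4.0). Hyou1, a large HSP70 relative that exchanges nucleotide on BiP, was at 3.18 and Sel1l, of the complex that sends misfolded proteins to disposal, at 2.70. All genes of this group other than Clgn were named after their values were seen. The list's lower gene was Calr3, a calreticulin of the testis, with 47.5, 61.8, 43.4 and 65.7 CPM in members and 110.3, 139, 103 and 152 CPM in mt-poor spermatids, a log2 ratio of -1.18 (-1.34 to -1.03).

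The promoters of these genes are shown because several chaperone promoters share a sequence, the endoplasmic reticulum stress element, which is known to bind factors of the response to unfolded protein. Calr3, the chaperone gene that was lower, is printed for comparison. The element was searched as CCAAT, then 9 bases of any kind, then CCACG, on both strands in the 300 bases from 250 before to 50 after the start of each gene, taken from RefSeq (GRCm38.p6). Matches are in capitals, and those on the opposite strand begin CGTGG and end ATTGG. The windows were chr2:34771840-34772139 (plus strand), chr10:86705395-86705694 (minus strand), chr12:17266339-17266638 (plus strand) and chr8:72443729-72444028 (minus strand), each printed 5′ to 3′ along its gene.
Hspa5: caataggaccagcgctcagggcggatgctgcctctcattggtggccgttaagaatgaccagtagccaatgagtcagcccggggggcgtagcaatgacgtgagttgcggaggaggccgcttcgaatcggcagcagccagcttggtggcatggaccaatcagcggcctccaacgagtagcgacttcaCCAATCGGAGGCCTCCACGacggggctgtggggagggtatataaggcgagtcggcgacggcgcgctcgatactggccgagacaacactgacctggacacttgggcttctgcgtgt
Hsp90b1: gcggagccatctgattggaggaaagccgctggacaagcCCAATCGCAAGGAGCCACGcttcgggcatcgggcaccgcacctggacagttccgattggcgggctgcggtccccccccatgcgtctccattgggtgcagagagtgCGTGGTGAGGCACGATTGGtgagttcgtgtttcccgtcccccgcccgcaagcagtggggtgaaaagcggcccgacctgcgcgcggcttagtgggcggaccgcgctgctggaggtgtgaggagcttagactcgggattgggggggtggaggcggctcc
Pdia6: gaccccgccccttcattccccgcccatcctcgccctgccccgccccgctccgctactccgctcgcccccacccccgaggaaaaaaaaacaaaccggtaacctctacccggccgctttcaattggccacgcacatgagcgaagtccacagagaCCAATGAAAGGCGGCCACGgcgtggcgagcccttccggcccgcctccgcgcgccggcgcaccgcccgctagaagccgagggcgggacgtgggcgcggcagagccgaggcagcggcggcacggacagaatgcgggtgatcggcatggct
Calr3: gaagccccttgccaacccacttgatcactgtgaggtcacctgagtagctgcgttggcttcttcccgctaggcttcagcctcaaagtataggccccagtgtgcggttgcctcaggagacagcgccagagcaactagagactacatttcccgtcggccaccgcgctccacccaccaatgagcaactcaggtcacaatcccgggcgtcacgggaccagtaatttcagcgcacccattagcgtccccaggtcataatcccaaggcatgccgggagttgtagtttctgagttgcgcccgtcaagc
Hspa5 and Pdia6 each held 1 match and Hsp90b1 held 2, while Calr3 held 0 in this window. A promoter was found for 16 of the 20 chaperone genes, and 7 of them held a match (Calr, Canx, Creld2, Dnajc3, Hsp90b1, Hspa5 and Pdia6), against 35 of 27025 mouse promoters, or 0.130%. The element was searched because chaperone promoters are known to share it, so this difference is no result about the members. Of the 7 chaperone genes with a match 6 were called higher in all members and 5 with the filter, with Creld2 at 0.89 and Dnajc3 at 0.73 below 2-fold. Of all genes, 39.1% were higher in all members and 26.3% with the filter. Outside the list, 6 genes compared had a match, and with the filter Syvn1, a ubiquitin ligase of endoplasmic reticulum protein disposal, was at 3.11, Derl3, of the same pathway, at 1.85, Tdrd9, a helicase of the piRNA pathway, at 1.73, Pan2, a poly(A) nuclease, at 0.82, Hnrnpa3, an RNA-binding protein, at 0.60 and Alg12, a glycosylation enzyme, at -0.17. Of these 6, 5 were called higher in all members and 3 with the filter. Chaperone genes whose window held no match were higher as well, 6 of 9 with the filter, so the match did not separate the higher genes from the rest. A match describes letters and was not tested as a binding site.

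The machinery that moves new proteins into the endoplasmic reticulum and glycosylates them ran the same way. Of 20 genes of this list, also added after the values were seen, 15 were higher and 0 lower in all members (median 1.61), and 13 and 0 with the filter (median 1.64). Rpn1, a subunit of the oligosaccharyltransferase, had 315, 313, 302 and 348 CPM in marker-filtered members, against 61.6, 71.0, 69.3 and 68.1 CPM in mt-poor spermatids, a log2 ratio of 2.25 (2.16 to 2.33). Its 4 values in members were far above all 4 in mt-poor spermatids. The signal sequence receptor subunit Ssr2 was at 2.90, the oligosaccharyltransferase subunit Stt3a at 2.60 and Rpn2 at 1.80. Stt3b, Spcs1, Sec61b and Sec61g did not reach 2-fold with the filter, at 0.64, 0.13, -0.28 and -0.52. Measured from the median gene of all members, 9 of the 20 were 2-fold higher. Against spermatocytes the list was not raised. There 3 of the 20 were higher and 0 lower in all members, with a median of 0.39 against 0.47 for all genes. With the filter 2 were higher and 3 lower, with a median of 0.15 against 0.02. Of the 20 chaperone genes, 12 were higher and 1 lower in all members than in spermatocytes, and 11 and 3 with the filter.

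Acrosome genes split in both directions. Of 24 compared, 4 were higher and 4 lower in all members (median -0.26), where 39.1% of all genes were higher and 7.59% lower. With the filter 5 were higher and 2 lower (median 0.11), where 26.3% of all genes were higher and 7.71% lower. The list's share of higher genes was thus not above that of all genes. Acrbp, the proacrosin binding protein that packages the protease acrosin, had 2315, 2373, 2191 and 2715 CPM in marker-filtered members, against 785, 800.3, 826 and 791 CPM in mt-poor spermatids, a log2 ratio of 1.59 (1.56 to 1.62). Dpy19l2, an inner nuclear membrane protein that anchors the acrosome to the nucleus, had 434, 409.7, 371 and 428 CPM in members, against 93.8, 96.7, 106 and 92.7 CPM in mt-poor spermatids, at 2.08 (2.00 to 2.15). For both genes members were higher in every library without overlap. Gopc, a Golgi protein needed for acrosome assembly, was at 1.57 on 49 UMI, Izumo4 at 1.39 and Pick1 at 1.20. Lower were Izumo2 at -1.11 and the hyaluronidase Hyal5 at -1.16, which also were lower in all members, at -1.30 and -1.47. As a mean over barcodes Izumo2 was at -0.75 and no longer past 2-fold. Izumo1, the sperm protein that binds the egg receptor, stayed within 2-fold at -0.20, and so did the acrosomal protease Acr at 0.40.

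Tail genes also lay on both sides. Of 31 compared, 7 were higher and 5 lower in all members, where 39.1% of all genes were higher, and 8 and 3 with the filter (median -0.14), where 26.3% of all genes were higher. Catsperb, an auxiliary subunit of the CatSper calcium channel of the sperm tail, had 86.9, 86.7, 87.9 and 108 CPM in marker-filtered members, against 19, 19.1, 20.0 and 20.7 CPM in mt-poor spermatids, at 2.24 (2.08 to 2.39). The other genes called higher with the filter were the channel subunits Catsper2 at 1.39, Catsperg1 at 1.53 and Catsperd at 1.35, the axonemal dynein heavy chains Dnah8 and Dnah17 at 1.66 and 1.35, Hydin, a central pair protein, at 1.56, and Cfap43, of the axoneme, at 1.06. Lower were Cabyr, a calcium-binding protein of the fibrous sheath, at -1.15 (-1.21 to -1.09), the outer dense fibre gene Odf3 at -1.08 and Fscb, of the fibrous sheath, at -1.09. As means over barcodes Cabyr was at -0.90 and Odf3 at -0.73, short of 2-fold. Manchette and intraflagellar transport genes, which build the tail and shape the nucleus, had 3 of 18 higher and none lower with the filter, with Tbc1d32 at 1.14, Iqcg at 1.1 and Ift20 at 1.07, a share below the 26.3% of all genes.

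**Figure D4:**
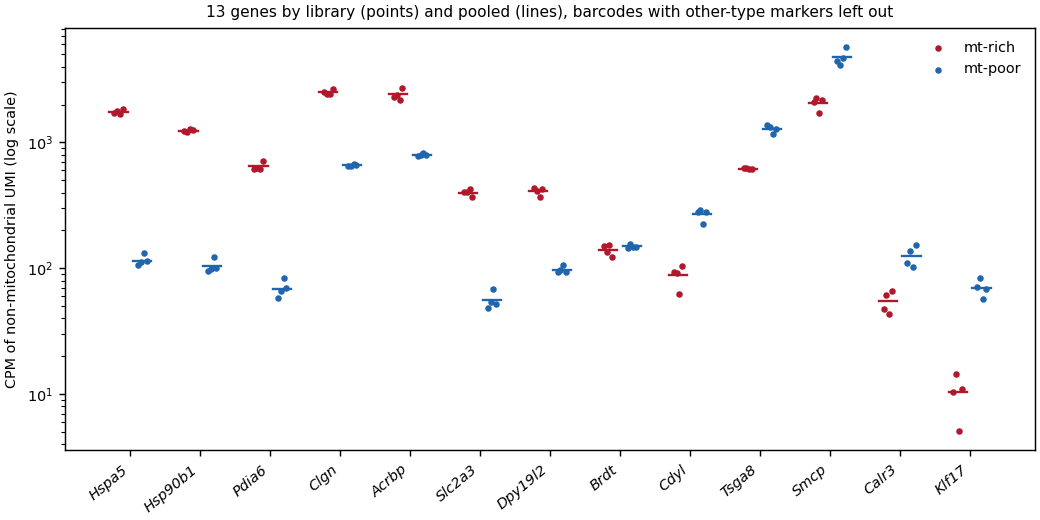
CPM of nuclear UMI (y axis, log scale) of 13 genes in marker-filtered mt-rich members (red, left of each pair) and mt-poor round spermatids (blue); points are the 4 libraries and lines the pooled value. Hspa5, Hsp90b1, Pdia6, Clgn, Acrbp, Slc2a3 and Dpy19l2 are higher and Cdyl, Tsga8, Smcp, Calr3 and Klf17 lower in members in all 4 libraries, while the points of Brdt overlap.

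Genes of later spermatids were lower or within 2-fold. Of 19 later spermatid genes compared, 6 were lower and 0 higher in all members (median -0.78), and 3 of 18 were lower with the filter (median -0.67). Of all genes, 7.59% were lower in all members and 7.71% with the filter. Some genes stand on several lists, Smcp, Tsga8, Akap4 and H1fnt among them. Smcp encodes a cysteine-rich protein of the mitochondrial capsule of sperm (chromosome 3, 92583867 to 92588997). It had 2099.9, 2268, 1710.0 and 2154 CPM in marker-filtered members, against 4461, 4087, 4709.6 and 5685 CPM in mt-poor spermatids, a log2 ratio of -1.20 (-1.22 to -1.17) that reached -2.14 as a mean over barcodes. H1fnt, the linker histone of condensing spermatids, was at -1.21 (-1.27 to -1.14), Spata19, a protein of the sperm mitochondrial sheath, at -1.14 (-1.19 to -1.09) and the X-linked spermatid gene Tsga8 at -1.05 (-1.10 to -1.01). Spata19 and Tsga8 were at -0.71 and -0.72 as means over barcodes. Klf17, a zinc finger transcription factor named after its values were seen, had 10.4, 14.5, 5.14 and 11 CPM in members and 70.7, 83.7, 56.9 and 68.6 CPM in mt-poor spermatids, at -2.75 (-3.11 to -2.41) on 73 UMI in members. The share of Tnp1, Tnp2, Prm1 and Prm2, which the rule limits to under 3%, had a median of 1.07% in members and 1.44% in mt-poor spermatids.

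Nuclear genes of the mitochondria did not follow the mitochondrially encoded transcripts. Of 41 nuclear genes of oxidative phosphorylation, 10 were higher and none lower in all members, and 3 were higher and none lower with the filter, where the list median was -0.04 against 0.35 for all genes and -0.08 for the 2391 most abundant. The genes called with the filter were Sdhd and Sdhc, the membrane anchors of succinate dehydrogenase, and Ndufa4. Sdhd had 44.6, 43.9, 42.2 and 49.9 CPM in marker-filtered members, against 6.07, 10.7, 10.2 and 9.15 CPM in mt-poor spermatids, at 2.33 (2.10 to 2.56). Sdhc was at 1.21, while Sdha and Sdhb, the other 2 subunits of that complex, were at 0.95 and -0.23. Ndufa4 was at 1.54 with the filter and 4.09 without it. The ATP synthase subunit Atp5b and the cytochrome oxidase subunit Cox5a were at -0.14 and -0.41.

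Of the genes that replicate and express mitochondrial DNA, 11 of 24 were higher and none lower in all members, and 6 of 23 higher and none lower with the filter (median 0.71), near the share of all genes. Polg, the mitochondrial DNA polymerase, had 43.1, 50.8, 45.7 and 42.6 CPM in marker-filtered members, against 16, 14.5, 16.9 and 14.1 CPM in mt-poor spermatids, at 1.58 (1.37 to 1.78). The mitochondrial RNA polymerase Polrmt was at 1.11 on 65 UMI, the single-stranded DNA binding protein Ssbp1 at 1.95 on 70, and the processing enzyme Elac2 at 1.28. Tfam, which packages mitochondrial DNA, was at 0.24, Lrpprc, which stabilises mitochondrial mRNA, at 0.37 and Slirp, its partner, at -0.11. For mitochondrial shape and quality, Pld6, a mitochondrial outer membrane protein of the piRNA pathway, was at 1.41 and the protease Lonp1 at 1.15 with the filter. Chchd3, of the inner membrane cristae, was at -1.05, and the other 17 of 20 were called neither way. As means over barcodes with the filter, 0 of the 20 were higher and 0 lower, so these calls rested on the pooled sums. Of 17 testis forms of mitochondrial proteins and sheath genes, Slc25a31, the sperm ADP/ATP carrier, was higher at 1.06, Smcp and Spata19 were lower and 14 were neither. As means over barcodes with the filter, 0 of the 17 were higher and 2 lower. The sheath selenoprotein Gpx4 was at -0.34.

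In glycolysis, which fuels sperm movement, the glucose transporter Slc2a3 stood apart. It had 402, 403, 423 and 371 CPM in marker-filtered members, against 48.9, 54.3, 68.0 and 51.9 CPM in mt-poor spermatids, a log2 ratio of 2.84 (2.76 to 2.93). The other 14 genes of the list were called neither way with the filter and the list median was -0.48. As means over barcodes 5 of 15 were lower. The sperm-specific Gapdhs was at -0.67, Pgk2 at -0.73 and the lactate dehydrogenase Ldhc at 0.02.

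Phf7, the gene under study, and Brdt, the testis bromodomain protein that acts in histone removal, were close in members and mt-poor spermatids. Phf7 had 59.6, 362, 719 and 101 CPM in members of libraries 1 to 4, against 87.7, 455, 905 and 128 CPM in mt-poor spermatids of the same libraries. The libraries differed far more than the parts, and within each library the member value was the lower. The pooled log2 ratio was -0.28 (-0.34 to -0.23), and -0.12 (-0.18 to -0.05) with the filter. Brdt had 145, 139, 139 and 122 CPM in members, against 145, 159, 148 and 150.5 CPM in mt-poor spermatids. No member value was above the mt-poor value of its library, and in library 1 both rounded to the same value. Its log2 ratio was -0.15 (-0.23 to -0.07), or -0.10 (-0.20 to 0.00) with the filter, where the libraries' values overlapped.

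Among genes of histone variants and histone-to-protamine exchange, 11 of 29 were higher and 3 lower in all members, where 39.1% of all genes were higher and 7.59% lower. With the filter 6 of 27 were higher and 3 lower, where 26.3% of all genes were higher and 7.71% lower. The list's share of higher genes was thus not above that of all genes. Cdyl, a chromodomain protein, had 92.9, 91.2, 62.8 and 105 CPM in marker-filtered members, against 279.5, 290.5, 226 and 281 CPM in mt-poor spermatids, at -1.61 (-1.73 to -1.50), without overlap of the libraries. H3f3b, which encodes histone H3.3, was at -1.09 with the filter but at -0.40 without it. Among those higher with the filter were H2afx, the histone variant phosphorylated at DNA breaks, at 1.46, Epc2 at 1.59, Hdac3 at 1.26, Parp2 at 1.19 and the acetyltransferase Kat5 at 1.08. In the transcription and mRNA storage list, Fhl5, a coactivator of the spermatid factor CREM, was lower at -1.39 (-1.47 to -1.32), Crem itself was at -0.62, and Pabpc6, Ovol1 and Ythdc2 were higher at 1.61, 1.38 and 1.28. Dazl, an RNA-binding protein of earlier germ cells, was at 3.38 in all members and 0.72 with the filter.

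Genes of meiosis and the divisions leaned higher. Of 25 compared 15 were higher and none lower in all members (median 1.23), where 39.1% of all genes were higher and 7.59% lower. Of 19 compared with the filter 7 were higher and none lower (median 0.92), where 26.3% of all genes were higher and 7.71% lower. Among genes of 8.43 to 22.6 CPM, 39.5% were higher with the filter, and the list was not matched for level. Beside Clgn the genes higher with the filter were the mismatch repair gene Mlh3 at 2.38 on 28 UMI, the spindle checkpoint kinase Bub1b at 1.70, the topoisomerase Top2a at 1.23, the kinases Aurka and Plk1 at 1.20 and 1.06, and the testis proteasome subunit Psma8 at 1.09. The synaptonemal complex genes Sycp2 and Sycp3 were at 0.94 and 0.70. Early spermatocyte markers, 3.33 per 10000 in marker-filtered members and 1.61 in mt-poor spermatids, moved with this list, and so did the late spermatocyte markers, at 49.2 and 24.1 per 10000, which share Clgn and Aurka with it. Their part in it was not tested. X-linked spermatid genes, switched on after meiosis, ran lower, with 6 of 16 lower in all members and 3 lower and 2 higher with the filter (median -0.74), the higher ones being Ssxb10 and Ssxb3 of a multicopy family whose counts are uncertain.

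Stress and X-linked genes had the highest ratios of the list genes in all members, and other-type markers moved with them. The highest were Atf3 at 7.30 (5.72 to 9.59, on 3 UMI in mt-poor spermatids), Ier2 at 7.05, Fos at 6.77, Zfp36 at 6.75, Ier3 at 6.46, Junb at 6.23 and Btg2 at 5.75, all known to be induced early on cell dissociation, the X-linked genes Hprt at 6.36, Atrx at 5.75 and Rpl39 at 5.71, Top2b at 6.08 and the p53 target Phlda3, with 63 UMI in members and 2 in mt-poor spermatids (4.89 to 9.88). Over all genes the 10 highest were Ccl8, Pf4, Ccl7, Cxcl12, Wfdc17, Col1a2, Prss50, Dcn, Atf3 and Cbr2, most of them known from macrophages and connective tissue, with 129 to 894 UMI each in members and 0 to 20 in mt-poor spermatids. Fos had 96.5, 110.4, 119 and 131 CPM in members, against 1.18, 0.960, 0.334 and 1.71 CPM in mt-poor spermatids, but 2.23, 0.498, 5.14 and 1.05 CPM in marker-filtered members, on 15 UMI. Sertoli and Leydig barcodes had 571 and 1021 CPM of Fos. How much of each ratio came from barcodes holding RNA of other cells was not tested beyond the filter.

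By list, 14 of 17 stress genes were higher in all members and 3 of 10 with the filter, 15 of 19 X-linked housekeeping genes and 3 of 14, 10 of 14 p53 response genes and 3 of 9, and 10 of 30 cytosolic ribosomal protein genes and 0 of 30. Of all genes, 39.1% were higher in all members and 26.3% with the filter, so with the filter these lists were near or below that share. The median of the ribosomal list was 0.47 in all members and -0.33 with the filter. Diablo, a mitochondrial protein released in cell death, had 430.1, 532, 601 and 535 CPM in marker-filtered members and 129, 152, 186 and 168 CPM in mt-poor spermatids, at 1.75 with the filter and 1.62 without it. Rps4x was at 2.84 with the filter, on 97 UMI, Junb at 2.81 on 39, Jun at 1.91 on 24 and Sesn2, a p53 target, at 2.15 on 31. Hspa1a was lower at -1.86 on 6 UMI in members, the X-linked ubiquitin enzyme Ube2a at -1.44 and the cell death gene Bcl2l11 at -1.16.

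Of the 5297 genes called higher in all members and the 3149 called higher with the filter, 2723 were shared, 51.4% of the first list and 86.5% of the second, and of the 1027 and 922 called lower 752 were shared, 73.2% and 81.6%. With the filter the 10 highest genes were Gm26564 at 5.58, Gm21190, Rab37, Gm3252, Phxr4, Gm3468, 2610037D02Rik, Fbxw19, Gm15728 and Gm15614 at 4.40, several of them predicted genes of repeated families, whose counts are uncertain. Gm15728 had the most UMI among them, 458 in members and 109 in mt-poor spermatids. The 10 lowest were Nckap5l, Zscan5b, Trh, Apol7b, Gabrg3, Hoxa9, Tmem55a, Fgb, 4933405E24Rik and Syt17, each on 1 to 6 UMI in members and 129 to 337 in mt-poor spermatids. In all members the lowest were Hoxa9, Zscan5b, Trh, Gapt, Gm43470, 4933405E24Rik, Fgb, Rassf6, 4932414J04Rik and Gm32921, on 2 to 8 UMI in members and 96 to 337 in mt-poor spermatids.

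A few named nuclear long non-coding RNAs were higher, unlike long non-coding genes as a class. The annotation's lincRNA class had 109 of 755 genes higher and 212 lower in all members (median -0.42), and 121 of 722 higher and 161 lower with the filter (median -0.27). Antisense genes had medians of -0.33 and -0.17, and protein-coding genes 0.75 and 0.41. Of 7 found from a list added after the values were seen, 6 were higher in all members, and 4 of 5 with the filter. Malat1, a nuclear-retained RNA (chromosome 19, 5795690 to 5802672), had 2449, 1831, 1894 and 2048 CPM in marker-filtered members, against 1035, 984, 1012 and 957 CPM in mt-poor spermatids, at 1.02 (0.99 to 1.05), but 0.31 as a mean over barcodes. The imprinted antisense RNAs Kcnq1ot1 and Airn were at 2.36 (2.20 to 2.52) and 3.33 (2.85 to 3.82), Airn on 110 UMI, and at 1.71 and 3.50 as means over barcodes. Neat1 was at 4.76 in all members and 1.49 with the filter. Sertoli and Leydig barcodes had 9833 and 19162 CPM of Malat1.

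Across round spermatid barcodes, the endoplasmic reticulum genes were graded with the mitochondrial share. Over bins of under 0.5%, 0.5% to 1%, 1% to 2%, 2% to 5% and 5% to 10% mitochondrial UMI, the marker-filtered chaperone sum was 26.8, 36.9, 70.7, 112 and 129 UMI per 10000, and the translocation sum was 21.2, 27.6, 31.1, 42.9 and 47.3. Hspa5 stood at 78.9, 388, 854, 1932 and 2569.6 CPM and Clgn at 621, 931, 1817, 2684 and 2922 CPM over the same bins. Hspa5 increased at each step in every library, and between the upper 2 bins it ran from 1842 to 2017 CPM at 2% to 5% and from 2365 to 2710.0 CPM at 5% to 10%. Without the filter Hspa5 stood at 84.4, 435, 792, 1780.0 and 1742 CPM, and in libraries 3 and 4 it was lower at 5% to 10% than at 2% to 5%. Acrbp stood at 774, 993, 1860.0, 2508 and 2930.4 CPM with it. The bins had median UMI of 2622, 3246, 3202, 3296 and 2104. The bin levels are pooled sums that weigh deep barcodes most, and the part of depth in this gradient was not tested.

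Later spermatid genes did not form a gradient but a step between the lowest bin and the rest. Their summed level was 178, 66.9, 96.7, 84.0 and 109 UMI per 10000, lowest at 0.5% to 1%, and Smcp stood at 5158, 1543, 2046, 1946 and 2634 CPM. The 406 marker-filtered barcodes from 0.5% to 1%, which are mt-poor by the rule, thus lay nearer the members than the mt-poor majority in Smcp, Klf17 (78.0, 11.5, 21.8, 5.53 and 12.4 CPM) and Tsga8 (1364, 689.8, 743, 558 and 680.1 CPM), and between both in Hspa5. The 8-marker sum, from the rule, was 58.5, 30.7, 55.6, 44.3 and 40.9 UMI per 10000. Nuclear oxidative phosphorylation genes were nearly level at 103, 124, 96.8, 95.2 and 104, and cytosolic ribosomal proteins stood at 139, 171, 127, 103 and 110.1 UMI per 10000. Without the marker filter the ribosomal sum was 140.1, 177, 165, 188 and 299 and 4.27, 24.1, 28.6, 28.8 and 38.2% of the barcodes in the 5 bins carried other-type markers.

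**Figure D5:**
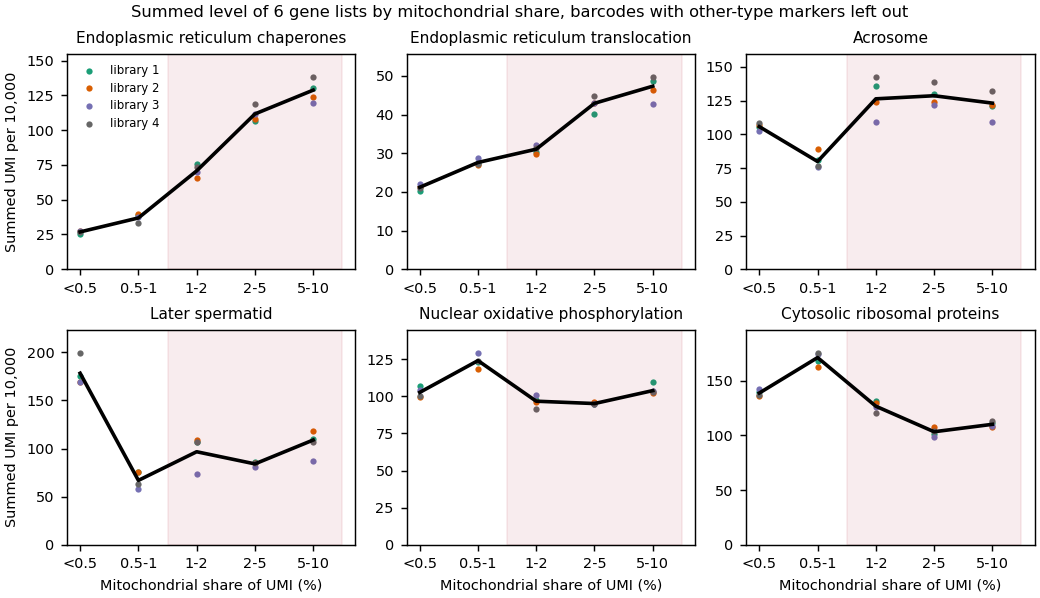
Summed UMI per 10000 nuclear UMI (y axes) of 6 gene lists in round spermatid barcodes binned by mitochondrial share (x axis, %), with barcodes carrying markers of other cell types left out; points are the 4 libraries, lines the pool, and the shaded bins are the members. The chaperone sum runs from 26.8 to 129 across the bins, while later spermatid genes drop after the lowest bin and nuclear oxidative phosphorylation stays between 95.2 and 124.

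Levels were also set beside 6323 marker-filtered spermatids at protamine onset, where Tnp1, Tnp2, Prm1 and Prm2 took 3% to 15% of UMI, and 666 spermatocytes gated on Pou5f2 and Piwil1. These are levels in pooled sums, and no order in time between members and mt-poor spermatids was measured. Hspa5 had 1759 CPM in marker-filtered members, 115 in mt-poor spermatids, 39.0 at protamine onset and 449 in spermatocytes. Clgn had 2507 CPM in marker-filtered members, 658 in mt-poor spermatids, 180.5 at protamine onset and 725 in spermatocytes, and Dpy19l2 had 409.5 CPM in marker-filtered members, 97.2 in mt-poor spermatids, 17.9 at protamine onset and 109 in spermatocytes. For these 3 genes the members were the highest of the 4 parts. Slc2a3 instead was highest in spermatocytes, with 399 CPM in marker-filtered members, 55.6 in mt-poor spermatids, 18.8 at protamine onset and 443 in spermatocytes. Smcp was highest at protamine onset, with 2065 CPM in marker-filtered members, 4730.4 in mt-poor spermatids, 12935 at protamine onset and 114 in spermatocytes, and so was Cdyl, with 88.2 CPM in marker-filtered members, 269.8 in mt-poor spermatids, 591 at protamine onset and 6.34 in spermatocytes. Klf17 was highest in the mt-poor part, with 10.4 CPM in marker-filtered members, 70.1 in mt-poor spermatids, 20.6 at protamine onset and 0.355 in spermatocytes. Phf7 had 351 CPM in marker-filtered members, 381 in mt-poor spermatids, 247 at protamine onset and 690.3 in spermatocytes, and Brdt had 139.7 CPM in marker-filtered members, 149 in mt-poor spermatids, 35.2 at protamine onset and 197 in spermatocytes.

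Against the spermatocytes themselves, which had a median of 32154.5 UMI and a mitochondrial share of 1.28%, members held more of the acrosome, later spermatid and X-linked transcripts. The rule parts these barcodes by round spermatid and spermatocyte markers, so these differences are a description. Of 12797 genes, 5094 (39.8%) were higher and 1450 (11.3%) lower, and with the filter on members 3640 of 11522 (31.6%) and 2838 (24.6%). Of 25 acrosome genes 17 were higher and 1 lower, with Zp3r, a sperm protein that binds the egg coat, at 505 CPM in members and 2.21 CPM in spermatocytes. With the filter the hyaluronidase Spam1 was at 7.36 and the channel subunit Catsper1 at 6.63. All 18 later spermatid genes compared and all 14 X-linked spermatid genes compared were higher, and with the filter 18 of 18 and 14 of 14. X-linked housekeeping genes, silenced in spermatocytes, were higher in 18 of 18 (median 6.38), and in 8 of 9 with the filter (median 3.93). In all members, without the filter, they were led by Rpl39, Rpl36a, Rps4x and Cox7b. These had 413, 755, 1981 and 249 UMI in all members and 3, 7, 23 and 3 in spermatocytes. How much of these UMI came from barcodes holding RNA of other cells was not tested beyond the filter.

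Lower in members than in spermatocytes were Timm8a2, a mitochondrial import gene, at -2.89, the spermatocyte proteasome subunit Psma8 at -2.28, the mRNA-storage protein Ybx2 at -2.04, Pld6 at -1.94, the testis cytochrome Cyct at -1.87, Mlh3 at -1.73, the meiotic transcription factor Mybl1 at -1.72, Ift27 at -1.63, the complex III subunit Uqcrc2 at -1.51, and the mitochondrial RNA genes Tefm, Elac2 and Fastkd1 at -1.43, -1.43 and -1.43. With the filter all 12 were lower as well, from -1.67 for Ift27 to -3.67 for Timm8a2. Of 41 nuclear oxidative phosphorylation genes 6 were lower and 4 higher, with a list median of -0.54, and with the filter 19 were lower and 2 higher, with a median of -0.94 against 0.02 for all genes. The stress genes Fos, Fosb, Btg2, Zfp36, Ier2, Ier3 and Nr4a1 had 174 to 1202 UMI in members and 2 to 15 in spermatocytes. Over all genes Hsd3b6, Insl3, Lyz2, Cd74, C1qc, H2-Aa, Lrp8, Wfdc17, Ly6e and H2-Eb1 had the highest ratios in all members, most of them Leydig and macrophage genes, with 522 to 2226 UMI in members and 1 to 9 in spermatocytes. With the filter Nr4a1 kept 242 UMI and Lrp8 576, and each of the others had 0 to 32. The 10 lowest in all members were RP24-136L4.4 at -5.29, Gm5930, Gm20324, 1520401A03Rik, Gm9732, 1700040D17Rik, 4930477E14Rik, Gm15853, Sdr42e1 and Gm5878 at -3.79. Against spermatocytes Phf7 was at -1.11 in all members and -0.97 with the filter, where it fell short of 2-fold, and Brdt at -0.53 and -0.49.

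Between libraries the members varied little outside a few genes. Over 5739 genes with at least 30 UMI in each library, the highest library of marker-filtered members exceeded the lowest by a median factor of 1.25. The gene with the largest factor was Phf7, at 14.4, followed by Dynlt1a at 5.35 and Dynlt1f at 4.07, 2 related dynein light chain genes that can share reads, whose lowest value was in library 1. Rpl35 followed at 3.25 and Eno1 at 2.96, also lowest in library 1. Brdt ranked 2936 of these genes, at a factor of 1.24. With library and genotype not tied, none of these differences was assigned to a genotype.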

How the data were processed

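Single-cell 3' libraries were prepared with the 10x Chromium version 3 kit per the labels' protocols and, per the submitters' processing notes, handled with bcl2fastq 2.19.1.403 and Cell Ranger 3.0.2 on mm10. The authors deposited 1 matrix of raw UMI counts per gene and barcode that joins the 4 samples, with 28692 genes, 32273 barcodes and 44447735 to 50353091 UMI per library. Its columns not used number 0. Barcode suffixes carry no sample name, so the matrix was treated as 1 sample and no p-value was computed. No doublet caller was run. Other-type markers and removal of the 5% of barcodes with the most UMI were used as alternatives instead.

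Counts were summed per gene over barcodes and divided by the summed non-mitochondrial UMI. Genes needed at least 50 UMI over both parts, and a gene was called at 2-fold with the same direction in 4 of 4 libraries. Log2 ratios were computed with a floor of 3 counts. Their intervals are exact conditional 95% intervals from the counts without that floor, and cover counting error only. Levels from 3' tags were not compared between genes. Genes named were the 12 highest and 12 lowest list members and the 10 highest and 10 lowest of all called genes per comparison, with Phf7 and Brdt always, applied to all members against mt-poor spermatids and against spermatocytes; further genes were chosen after their values were seen. The members and lists were chosen with earlier results of these data known. Symbols follow the matrix, coordinates are GENCODE M21 on GRCm38, and promoters come from RefSeq GRCm38.p6. The calculation was tested on simulated data and used Python with numpy, scipy and pandas. Alternatives were other denominators, means over barcodes, thinning to 1000 UMI, other minimums and mitochondrial limits, leaving out each library, and, added after the data were seen, the marker filter and centring on the median gene.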

Additional observations from a re-analysis of the deposited data

How the results depend on the processing

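Of the alternatives for 120 results of single genes, 1701 values kept direction and side of 2-fold, 28 fell short of 2-fold, 15 newly reached it and 0 changed direction. Named genes were mostly chosen by extreme ratios that went the same way in all 4 libraries, or after their values were seen. The kept direction is therefore no check of them. Sizes could still move, as the stress list had a median of 5.61 over 17 genes in all members and 0.14 over 10 with the marker filter. The counts moved more, and the causes were not tested. Against mt-poor spermatids (124 list genes higher, 26 lower; 5297 of all genes higher, 1027 lower), means over barcodes gave 16 list genes lower; thinning to 1000 UMI gave 76 list genes higher and 2200 of all genes higher and 640 lower; a minimum of 200 UMI gave 2979 of all genes higher; at least 8 marker UMI gave 75 and 14 list genes and 3446 of all genes higher; 1.5-fold gave 64 list genes and 1910 of all genes lower; limits of 2% and 0.5% gave 41 list genes lower. Of those chosen after the data were seen, the marker filter gave 56 list genes and 3149 of all genes higher, with thinning 35 and 16 list genes and 1444 and 621 of all genes, and with means over barcodes 46 list genes and 2680 of all genes higher. Centring on the median gene gave 81 and 87 list genes and 3463 and 2699 of all genes. Against spermatocytes (146 list genes higher, 33 lower; 5094 of all genes higher, 1450 lower), means over barcodes gave 59 list genes lower, thinning 2402, no minimum but 1 UMI 7861 and a minimum of 200 UMI 2848 of all genes higher, at least 8 marker UMI 84 list genes and 2542 of all genes lower, 1.5-fold 81 and 2699 lower, and the marker filter 91 and 2838 lower. Members were 39.3% of round spermatid barcodes, but 31.8% from 2% mitochondrial share, 42.3% with no upper limit, 44.0% with at least 1000 genes, 33.8% with at least 8 marker UMI and 32.3% with the marker filter. Leaving out each library gave 38.0% to 40.4%, 115 to 122 list genes higher and 26 to 28 lower, and 4759 to 4914 of all genes higher and 961 to 1054 lower against mt-poor spermatids, and 144 to 147, 33 to 36, 4541 to 4719 and 1369 to 1468 against spermatocytes. No paired analysis was possible because the barcode suffixes are tied to no replicate number of the labels and the results come from no test; the direction within each library is part of each call. Genes with few UMI in members are limited by depth.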

Other observations

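In marker-filtered members, Phf7 stood at 56.5, 379, 811 and 108 CPM in libraries 1 to 4, a factor of 14.4 between the highest and the lowest, against a median factor of 1.25 over 5739 genes. These libraries were assigned to no genotype.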
